A study of Mus musculus with 33 samples.

Results

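Among 30815 genomic regions counted by ChIP-seq in a reprogrammed mouse fibroblast line, 3832 (12.4%) were occupied by Mef2c without Gata4 or Tbx5 in cells given all 3 factors and were already occupied by Mef2c in cells given Mef2c alone. They were chosen from the measured values. Counts were summed per group, scaled to CPM (counts scaled to a common library total), and turned into a log2 enrichment, log2 of (CPM + 5) over (input CPM + 5), with all 9 input libraries summed. A region was taken as bound at an enrichment of at least 0.585, which is a 1.5-fold excess over input. The kept Mef2c-only regions were bound by Mef2c in both kinds of cell and fell below that threshold for Gata4 and for Tbx5 in cells with all 3 factors.

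Mef2c belongs to the MEF2 family of MADS-box transcription factors, which bind A/T-rich elements in the control regions of many genes of skeletal, smooth and cardiac muscle. Gata4 is a zinc-finger factor that binds GATA elements, and Tbx5 is a T-box factor. All 3 are needed for heart development, are known to act together at many cardiac genes, and together convert fibroblasts toward a cardiac muscle fate when expressed from viruses.

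The study asked where the 3 factors bind when each is expressed on its own and when all are expressed together. Chromatin came from a single cell line of immortalised neonatal mouse cardiac fibroblasts (strain Cd-1, genotype alpha-MHC-GFP) that express a cre-excisable large T antigen. Cells carrying retroviruses for Gata4, Mef2c and Tbx5 gave 4 Mef2c libraries (numbered 2 to 5), 6 Gata4, 4 Tbx5 (2 to 5) and 6 input libraries. Cells carrying a single factor gave 3 Mef2c libraries, 4 Gata4 libraries and 3 Tbx5 libraries, with 1 input per factor. Every group also received sb431542, an inhibitor of Tgfβ signalling, and xav939, an inhibitor of Wnt signalling, and was harvested unsorted on day 2. No group without virus was analysed here, and a factor made by the cells themselves cannot be told apart from the viral one. Mef2c was precipitated with a rabbit antibody, and Gata4 and Tbx5 with goat antibodies from another supplier, so factor and antibody cannot be told apart. Libraries of a group are given as biological replicates of this 1 line, and p-values measure the spread between them.

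Library totals over the regions ran from 352015 to 2377616 counts in ChIP libraries of cells with all 3 factors and from 222761 to 968131 with a single factor, against 97474 to 301678 in inputs. Gata4 alone number 4 stood apart: 12.3% of its counts fell in the kept Mef2c-only regions, against 6.15 to 7.53% in the other 3 Gata4 alone libraries and 11.3 to 12.5% in the 9 inputs. It was no part of the selection. Among libraries with all 3 factors, inputs 1 and 3, inputs 2, 4 and 5, and Gata4 1 and 6 differed by less than the sampling noise, and each set was counted as 1 sample in means and tests. In cells with all 3 factors, counts in the 5 regions of the Y chromosome were 7, 12 and 7 in inputs 1, 3 and 6, and 0, 2 and 0 in inputs 2, 4 and 5. For Gata4 with all 3 factors they were 160, 78 and 114 in libraries 1, 3 and 6, and 3, 9 and 1 in libraries 2, 4 and 5. For Tbx5 they were 1, 11, 0 and 1 in libraries 2 to 5. Gata4 alone gave 22, 168, 118 and 4, and Tbx5 alone 7, 4 and 8. All 5 regions passed the threshold for Gata4 with all 3 factors, so its binding and the source of the cells cannot be told apart there. For Mef2c the Y chromosome counts were 0, 14, 3 and 0 in libraries 2 to 5 with all 3 factors, and 8, 8 and 5 in the libraries of Mef2c alone. Relative to their totals, 3 of the 4 Mef2c libraries with all 3 factors thus held fewer such counts than those of Mef2c alone, and factor combination and source of the cells cannot be told apart between them.

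More regions were kept by Mef2c than were lost, gained or joined by another factor. The kept regions made up 71.2% of the 5383 regions that Mef2c bound on its own in cells with all 3 factors and 53.5% of the 7168 regions bound there by Mef2c in any combination. They also made up 65.0% of the 5891 regions bound in cells with Mef2c alone. Of the other regions bound by Mef2c alone, 1321 (22.4%) were no longer bound by Mef2c with all 3 factors and 738 (12.5%) stayed bound together with another factor: 309 with Gata4, 234 with Tbx5 and 195 with both. A further 1551 regions were bound only by Mef2c with all 3 factors and not by Mef2c alone. These counts follow from the selection and carry no test. Over all 30815 regions, the threshold was passed at 23.3% for Mef2c, 19.9% for Gata4 and 23.5% for Tbx5 with all 3 factors, and at 19.1% for Mef2c alone.

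The stronger a region's enrichment with Mef2c alone, the more often it stayed Mef2c-only. Of the 1168 regions with an enrichment of 0.585 to 1 with Mef2c alone, 614 (52.6%) were kept and 33.0% lost Mef2c. From 1 to 2, 1828 of 2943 (62.1%) were kept and 25.8% lost it, and from 2 to 3, 1183 of 1520 (77.8%) were kept and 11.4% lost it. Above 3, 207 of 260 (79.6%) were kept, 1.15% lost Mef2c and 19.2% were also bound by another factor with all 3 factors. From the weakest set upward, that last share was 14.4, 12.1 and 10.7% in the sets below 3, with no steady trend. The weakest regions also lie nearest the threshold, where a small difference changes the class, so the gradient in the kept share is a description.

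Mef2c took a large part of each library at these regions. They held 25.9, 33.5, 37.3 and 32.2% of the counts in Mef2c libraries 2 to 5 with all 3 factors (mean 32.2 ± 4.75%, SD, n = 4), and 49.5, 49.5 and 50.1% in the libraries of Mef2c alone (49.7 ± 0.33%, SD, n = 3). In the same regions were 11.3 to 11.7% of the counts of the 6 inputs with all 3 factors and 12.4 to 12.5% of the counts of the 3 single-factor inputs. These libraries chose the regions for high Mef2c and low Gata4 and Tbx5, so the shares follow in part from the selection. The Mef2c groups did not overlap with each other or with the inputs, and the library with the lowest share, number 2 with all 3 factors, was also the shallowest Mef2c library, at 383071 counts. The Gata4 share was 6.74, 7.98 and 10.3% (lowest, median and highest of 6) with all 3 factors and 6.55, 6.15, 7.53 and 12.3% in Gata4 alone libraries 1 to 4. The Tbx5 share was 6.37, 6.34, 8.64 and 6.55% in libraries 2 to 5 with all 3 factors, against 5.82, 6.07 and 6.41% for Tbx5 alone. Apart from Gata4 alone number 4, every Gata4 and Tbx5 library thus held less of its counts here than any input did, and in cells with all 3 factors the libraries numbered 4 had the highest share for each of the 3 factors.

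**Figure D1:**
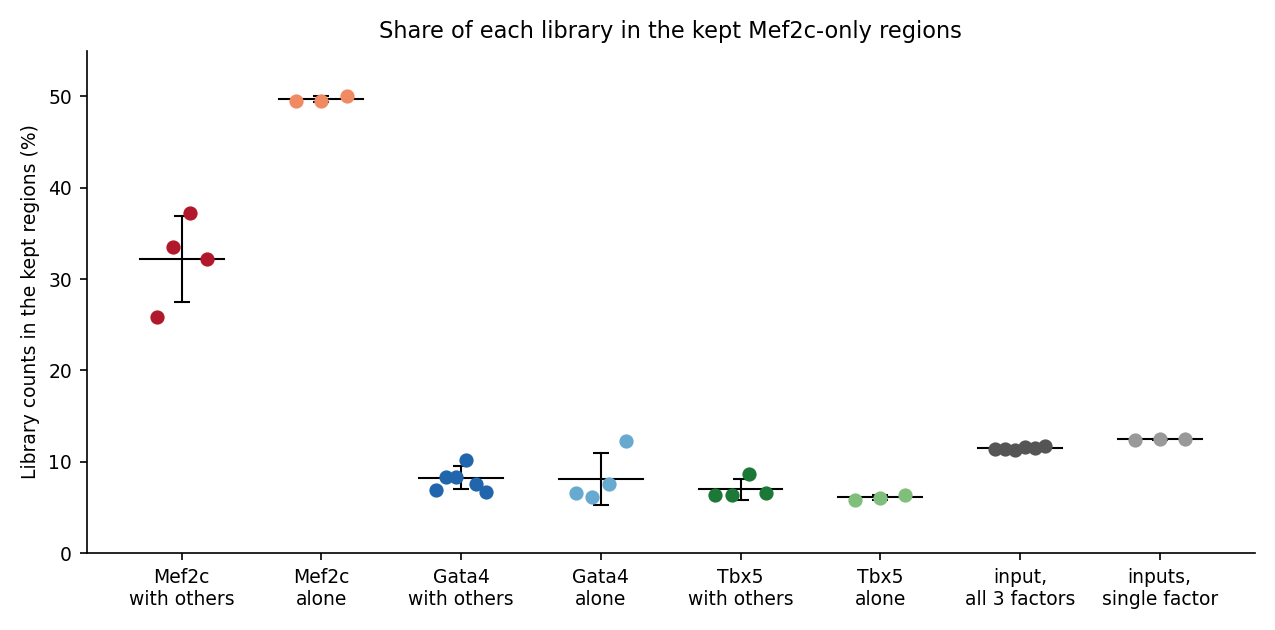
Share of each library's counts that fell in the 3832 kept Mef2c-only regions (percent, y axis), by group (x axis); each point is 1 library, and lines and bars give the mean and SD, with libraries that differed by less than the sampling noise counted as 1. The Mef2c libraries lie at 25.9 to 37.3% with all 3 factors and at 49.5 to 50.1% alone, above the inputs at 11.3 to 12.5%, and Gata4 alone number 4 lies at 12.3%.

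Each Mef2c library showed signal at many of the kept regions, though the number that passed the threshold differed between libraries. The median kept region had 52.2 to 86.7 CPM in Mef2c libraries with all 3 factors and 104.5 to 108.4 CPM in those of Mef2c alone, while the median of all 30815 regions in the same libraries was 12.2 to 20.9 CPM and 8.26 to 8.71 CPM. Taken library by library, 2398, 3198, 3593 and 3508 of the kept regions passed the enrichment threshold in Mef2c libraries 2 to 5 with all 3 factors, and 3631, 3730 and 3718 in those of Mef2c alone. Single Gata4 libraries with all 3 factors passed it at 24 to 332 kept regions and single Tbx5 libraries at 17 to 318. Both highest counts came from the libraries numbered 4. In all 7 Mef2c libraries at once, 1969 (51.4%) passed it, and 8.14% of all regions did. By CPM, every Mef2c library was above every one of the 9 inputs at 1666 kept regions (43.5%), against 7.03% of all regions. The 4 Mef2c libraries with all 3 factors were above all inputs at 1812 (47.3%), against 10.6% of all regions, and the 3 of Mef2c alone at 3208 (83.7%), against 15.4%. These counts follow in part from the selection.

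Enrichment differed widely among the kept regions. With all 3 factors the Mef2c enrichment had a median of 1.23 and ran from 0.59 to 3.35, and with Mef2c alone the median was 1.70 and the range 0.59 to 4.42. It was at least 1 in both kinds of cell at 2296 regions and at least 2 in both at 357. Enrichment was higher with Mef2c alone at 3004 kept regions (78.4%) and higher with all 3 factors at 828. Across the 3832 regions, enrichments in both kinds of cell correlated with Pearson's r = 0.58, as points that share an input and were held above the threshold on both axes. Of the 100 strongest in each, 54 were shared. The 3 members nearest above the Mef2c threshold had enrichments of 0.5853 to 0.5859 with all 3 factors and of 0.5851 to 0.5876 with Mef2c alone, and the 3 regions just below it 0.5843 to 0.5848 and 0.5830 to 0.5845. At the other limits, the 3 members with the most Gata4 and the most Tbx5 with all 3 factors had 0.5807 to 0.5825 and 0.5821 to 0.5845, and the 3 regions left out just past them 0.5875 to 0.5891 and 0.5871 to 0.5912.

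**Figure D2:**
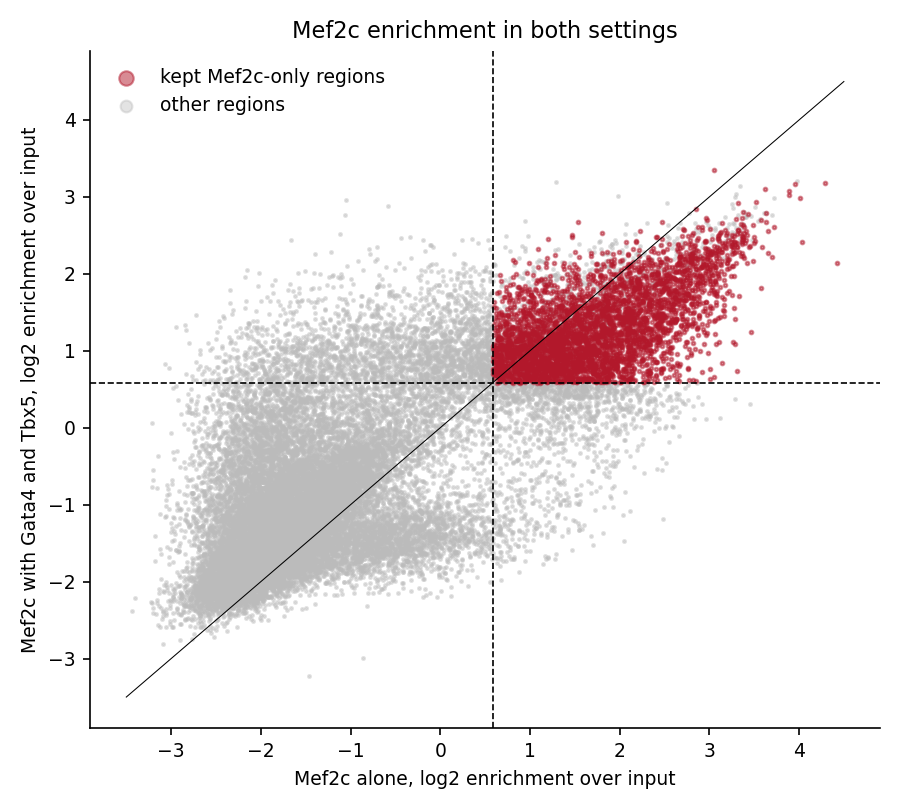
Log2 enrichment of Mef2c over input in cells with all 3 factors (y axis) against Mef2c alone (x axis); each point is a region, red points are the 3832 kept Mef2c-only regions, dashed lines mark the threshold of 0.585 and the solid line equality. Of the red points, 3004 lie below the line of equality. The grey points beyond both dashed lines also passed the threshold for Gata4 or Tbx5 with all 3 factors.

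The strongest kept region, by the lower of its Mef2c enrichments, was chr1:14350121-14350323 (mm9, as are all positions). Mef2c there reached 114.9, 167.0, 190.2 and 133.3 CPM in libraries 2 to 5 with all 3 factors and 368.1, 318.1 and 345.3 CPM alone, against 3.59, 15.5 and 31.3 CPM (lowest, median and highest) in the 9 inputs. All 7 Mef2c libraries lay far above every input, and the libraries of Mef2c alone above those with all 3 factors. Gata4 gave 4.25 to 28.4 CPM with all 3 factors and 6.21 to 22.4 CPM alone, and Tbx5 gave 1.06 to 7.31 CPM with all 3 factors and 0 to 8.96 CPM alone, within or below the range of the inputs.

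The next strongest region, chr7:137772439-137772648, had 362.9, 283.6, 205.3 and 158.6 CPM of Mef2c with all 3 factors and 379.0, 355.3 and 377.2 CPM alone, and its inputs had 0, 16.9 and 42.3 CPM (lowest, median, highest). Here library 2 with all 3 factors reached the level of Mef2c alone and the groups overlapped. At chr19:4992898-4993144, Mef2c gave 370.7, 344.1, 249.5 and 203.1 CPM with all 3 factors and 363.7, 382.2 and 369.7 CPM alone, with 10.3, 23.5 and 42.3 CPM in the inputs, and the groups again overlapped. Tbx5 gave 32.8 to 55.4 CPM at that region with all 3 factors, partly within the range of the inputs. Its enrichment of 0.52 was just short of the threshold.

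A different balance held at chr7:56103423-56103625, the region with the highest Mef2c enrichment of all 3832 in cells with all 3 factors. It had 180.1, 181.3, 151.2 and 135.4 CPM of Mef2c with all 3 factors and 131.8, 112.6 and 127.5 CPM alone, against 7.82, 10.3 and 12.6 CPM in the inputs. Here the libraries with all 3 factors were all above those of Mef2c alone. Tbx5 enrichment with all 3 factors was 0.50 at this region, also below the threshold. The other 6 of the 10 strongest were chr1:74795996-74796207, chr7:66099523-66099725, chr1:136229684-136229886, chr3:135179890-135180131, chr4:150289853-150290073 and chr18:32408940-32409155. Their mean Mef2c level lay between 110.0 and 208.6 CPM with all 3 factors and between 144.5 and 335.9 CPM alone, with input medians of 7.99 to 20.6 CPM.

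**Figure D3:**
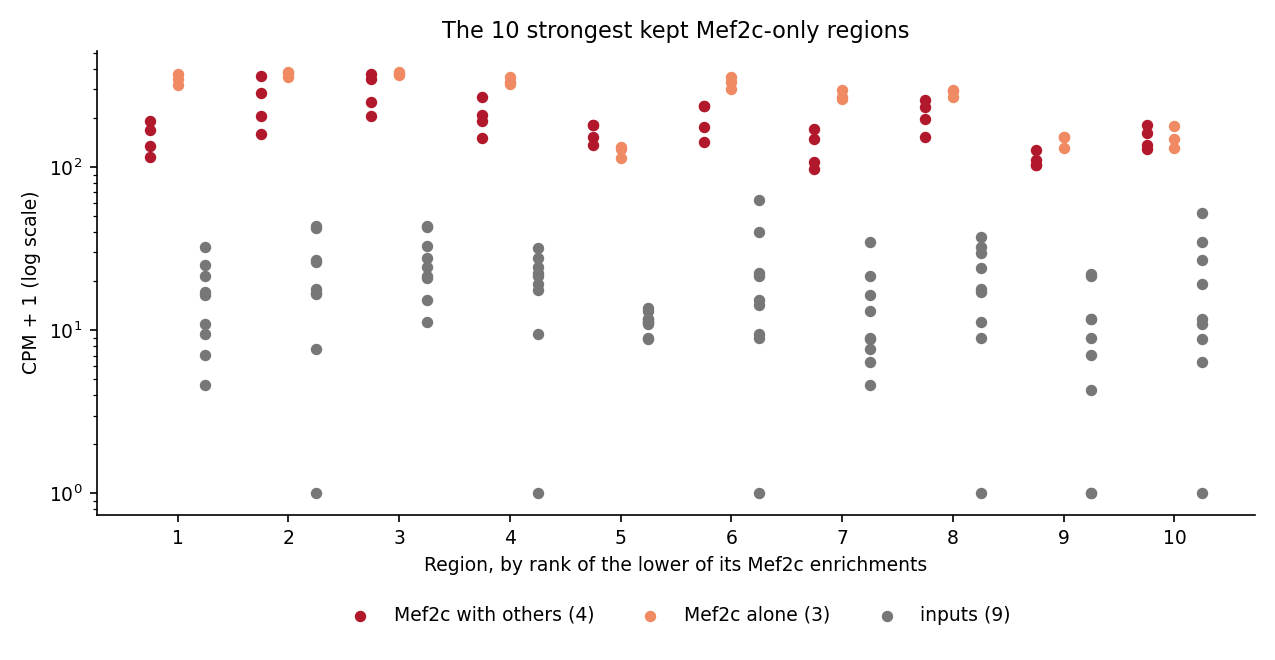
Mef2c and input levels (CPM + 1, log axis) at the 10 strongest kept Mef2c-only regions, ranked by the lower of their Mef2c enrichments; each point is 1 library. All 7 Mef2c libraries lie above all 9 inputs at each of the 10, and the region ranked 5, on chromosome 7, has higher Mef2c levels with all 3 factors than alone.

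Most kept regions had less Mef2c with all 3 factors than with Mef2c alone, relative to the rest of each library. All 3832 passed edgeR's count filter. Their log2 fold change, Mef2c with all 3 factors over Mef2c alone, had a median of -0.80 and ran from -3.58 to 1.36, with 3453 below 0 and 379 above. Over all 19391 regions past the filter the median was 0.15, so the kept regions' median was 0.95 log2 units below that of all regions. Scaling to library totals gave medians of -0.48 for the kept regions and 0.47 for all, and left 2989 below 0 and 843 above. Such a scaling shifts all regions about alike, so the distance of -0.95 could hardly change. The distance was -1.16 without the count filter and -1.04 with the replicate number as a block. At 1852 kept regions (48.3%) every Mef2c library with all 3 factors was below every library of Mef2c alone by CPM, against 14.2% of all regions, and at 144 (3.76%) every one was above, against 29.7%. Both groups chose the regions, so these values carry no test. With number 3 as the only library with all 3 factors, which for its total held Y chromosome counts most like those of Mef2c alone, the median was -0.81. This fit rests on 1 such library, chosen after seeing the data. It does not tell factor combination and source of the cells apart.

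**Figure D4:**
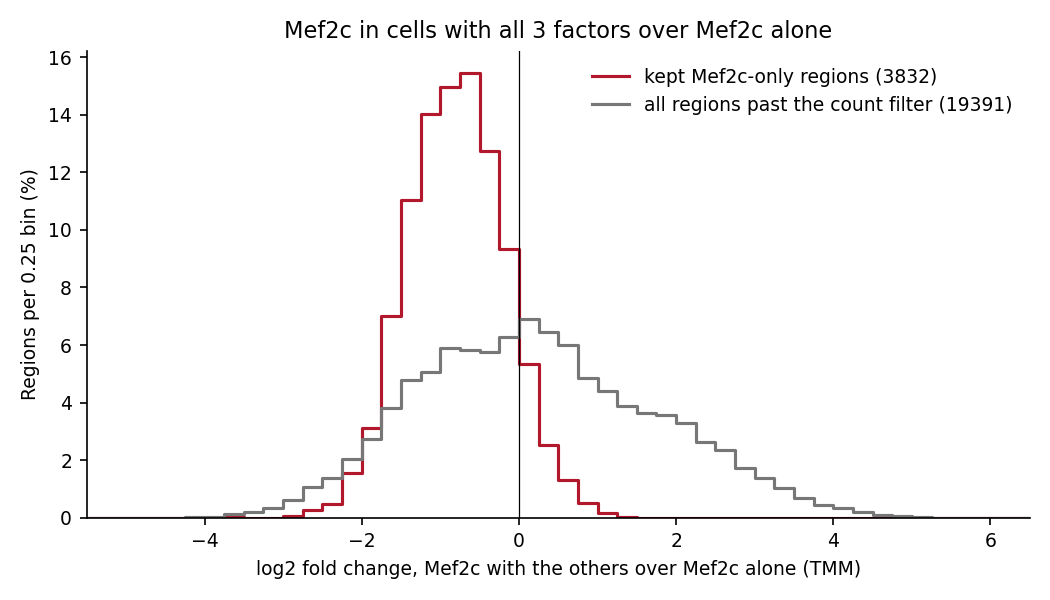
Log2 fold change of Mef2c with all 3 factors over Mef2c alone (x axis, TMM-scaled), as the percent of regions per bin (y axis), for the 3832 kept Mef2c-only regions (red) and the 19391 regions past the count filter (grey). The kept regions centre at -0.80 and all regions at 0.15.

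The regions at the ends of this range were named among those whose groups do not overlap. At chr2:163425228-163425430 Mef2c gave 315.9, 246.7, 152.4 and 155.2 CPM with all 3 factors, against 66.4, 63.0 and 75.4 CPM alone, a log2 fold change of 1.36 ± 0.27 (SE). The next 4, chr11:49621353-49621711, chr7:118121834-118122036, chr12:56124447-56124728 and chr4:10946430-10946632, had log2 fold changes of 1.06 to 1.19. In all, 7 kept regions had a log2 fold change above 1 and 1442 had one below -1. At the low end, chr3:88635374-88635576 had 0, 10.1, 4.65 and 0.421 CPM with all 3 factors (0, 12, 8 and 1 counts), against 46.8, 33.1 and 40.4 CPM alone, a log2 fold change of -3.58 ± 0.51. Its Mef2c levels with all 3 factors lay below the median of all regions in those libraries (12.2 to 20.9 CPM). It thus passed the threshold there only over a very low input, and its fold change rests on few counts. On the X chromosome, chrX:165561163-165561440 had 13.1, 14.3, 50.0 and 21.0 CPM with all 3 factors, against 179.7, 154.9 and 168.9 CPM alone, at -2.92 ± 0.34. The other 3, chr1:90516778-90516988, chrX:38355571-38355800 and chr9:123937861-123938077, lay between -2.75 and -2.91. While 2 of these 5 lie on the X chromosome, X regions numbered 43, 34, 30 and 43 in 4 sets of 958 kept regions ranked from the lowest to the highest fold change. In each of the 5 the libraries with all 3 factors spread more widely around their mean, relative to its size, than those of Mef2c alone.

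Below their thresholds, Gata4 and Tbx5 signal in cells with all 3 factors varied along with this fold change. In the lowest of the 4 sets of 958 regions by Mef2c fold change (-3.58 to -1.22) the median enrichment was -0.91 for Gata4 and -1.13 for Tbx5. In the following 3 sets it was -0.65, -0.55 and -0.37 for Gata4 and -0.81, -0.66 and -0.47 for Tbx5. The share of regions with Gata4 above input was 5.22% in the lowest set and 27.9% in the highest, and that with Tbx5 above input was 1.98 and 23.8%. With Gata4 alone the medians over the same 4 sets were -1.05, -0.94, -0.91 and -0.90, and with Tbx5 alone -1.19, -1.03, -0.97 and -1.01, a narrower span. The sets had like input levels (median 28.0 to 29.2 CPM) and widths (median 223 to 236 bp). They differed most in Mef2c alone, with median enrichments of 2.34, 1.93, 1.40 and 0.995 from the lowest set to the highest. Mef2c with all 3 factors had medians of 1.11, 1.28, 1.16 and 1.34, so the sets mostly ranked regions by Mef2c alone. Gata4 and Tbx5 signal was not compared at like levels of Mef2c alone. These medians share libraries with the selection, the sets were formed after the values had been seen, and no test was made.

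Gata4 and Tbx5 on their own passed the threshold at few of these regions, though how few depended on the input. Over the kept regions the median enrichment was -0.64 for Gata4 with all 3 factors and -0.95 for Gata4 alone, and -0.79 for Tbx5 with all 3 factors and -1.06 for Tbx5 alone. Gata4 alone passed the threshold at 164 kept regions (4.28%), against 21.3% of all regions, and Tbx5 alone at 150 (3.91%), against 20.5%. Low shares were not limited to the kept regions. Gata4 alone passed at 3.09% of the gained and 6.59% of the lost Mef2c regions, and Tbx5 alone at 2.39 and 2.95%. Against the single input of the same factor, 421 kept regions passed for Gata4 alone and 481 for Tbx5 alone, and 29.3 and 30.3% of all regions did. With all inputs, both passed at 16, and neither passed at 3534 (92.2%). The selection had already left out regions bound by either factor in cells with all 3 factors, so a low share follows in part from it. At the 164 regions the median Gata4 enrichment was 0.23 with all 3 factors and 0.83 alone, and at the 150 the Tbx5 medians were 0.26 and 0.76. These regions' Mef2c medians with all 3 factors, 1.16 and 1.31, lay on either side of the median of all kept regions.

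Which of the other factors left more signal was tested between Gata4 alone and Tbx5 alone, libraries that did not enter the selection. Only 1339 of the 3832 regions had enough counts to be tested, and 536 of them differed by edgeR's quasi-likelihood test at an adjusted p under 0.05, with 333 higher for Gata4 and 203 higher for Tbx5. Over all 18790 regions tested 71.3% were called, 38.4% higher for Gata4 and 32.9% higher for Tbx5. A region that passed the filter through the group where it is high was likelier to be called, so the counts describe the tested regions only. Without Gata4 alone number 4, whose share resembled the inputs, 610 of the 1019 kept regions tested were called, 314 higher for Gata4 and 296 for Tbx5, against 83.2% of all regions tested. Scaling to library totals gave 407 and 132, and without the count filter the balance turned, with 247 higher for Gata4 and 291 higher for Tbx5 (538 of 3832 called, against 43% of all regions). The count higher for Tbx5 was 79, 84 and 104 without Gata4 alone number 1, 2 and 3 in turn, and without Tbx5 alone number 1 only 345 were called, 202 of them higher for Gata4. By CPM, all Gata4 libraries were above all Tbx5 libraries at 675 of the 3832 kept regions (17.6%), against 26.1% of all regions, and all were below at 173 (4.51%), against 18.6%.

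Regions whose groups do not overlap were named from both ends. Of the 1339 kept regions tested, 281 were called higher for Gata4 without overlap and 126 higher for Tbx5, against 31.8 and 28.4% of all regions tested. The named regions were picked as called, with the largest fold changes, and could pass the count filter through the higher group alone. Their p-values, here and in the next paragraphs, thus describe picked regions and are no separate evidence. At chr2:153547076-153547306, Gata4 alone gave 64.2, 37.2, 59.4 and 35.9 CPM in libraries 1 to 4 and Tbx5 alone 2.06, 2.99 and 4.71 CPM, from 88 and 4 counts. The log2 fold change was 3.73 ± 0.60 (SE), with an adjusted p of 6.62e-05 by edgeR. In cells with all 3 factors the same region held 29.1 to 39.3 CPM of Gata4, 65.3 to 112.3 CPM of Mef2c and 8.62 to 19.6 CPM of Tbx5, and with Mef2c alone 34.8 to 55.8 CPM of Mef2c. The Gata4 levels with all 3 factors and alone overlapped there.

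At chr19:26929181-26929526 Gata4 alone gave 109.7, 132.0, 70.4 and 53.9 CPM and Tbx5 alone 14.4, 2.99 and 7.06 CPM (log2 fold change 3.28 ± 0.52, adjusted p 6.46e-05 by edgeR). At chr3:37072251-37072524 Gata4 alone gave 68.3, 135.4, 105.6 and 22.4 CPM and Tbx5 alone 8.24, 8.96 and 4.71 CPM (3.42 ± 0.59, adjusted p 0.000113 by edgeR). In both, number 4 was the lowest Gata4 library. At chr1:187191304-187191640 and chr1:72243646-72243878 Tbx5 alone had 2 and 3 counts in all, against 38 and 44 for Gata4 alone. The count ratios were 13.5 (95% interval 3.49 to 115.5) and 10.4 (3.34 to 52.5), intervals that cover counting error only.

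By fold change, Tbx5 exceeded Gata4 most at chr7:146536706-146537022, with 4.14, 1.69, 13.2 and 4.49 CPM for Gata4 alone and 51.5, 53.8 and 68.3 CPM for Tbx5 alone. Its log2 fold change was -3.37 ± 0.54, with an adjusted p of 6.95e-05 by edgeR. With all 3 factors Tbx5 held 39.2 to 77.3 CPM here, and Mef2c 54.8 to 109.9 CPM with all 3 factors and 58.8 to 87.8 CPM alone. At chr1:75343895-75344239 Gata4 alone gave 3.38 to 13.5 CPM and Tbx5 alone 59.7 to 95.6 CPM (-3.21 ± 0.46, adjusted p 2.88e-05 by edgeR, the smallest among the kept regions). Tbx5 with all 3 factors was 10.3, 23.3, 62.7 and 11.9 CPM there, so that number 4 alone reached the level of Tbx5 alone. At chr1:92919131-92919333, chr13:38412218-38412420 and chr1:166826566-166826798 the log2 fold changes were -3.20, -3.19 and -3.16, with adjusted p by edgeR of 0.000738, 9.32e-05 and 8.45e-05. Gata4 alone number 4 held 40.4 CPM at the first of these, against 0 to 5.08 CPM in the other 3 Gata4 libraries, and without it the log2 fold change was -4.81, where it ran up to -2.42 with another library left out.

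Input chromatin was compared between cells with all 3 factors and single-factor cells, counting inputs that agree within sampling noise once. Of the 73 kept regions with enough input counts, 0 were called by edgeR (0% of the 853 regions tested), 2 had an unadjusted p under 0.05, and the smallest adjusted p was 0.442. Without the filter edgeR called 0 of 3832, with 142 at an unadjusted p under 0.05, and DESeq2 called 0, with 46. The median kept region had 3 to 8 counts in an input, and most kept regions were left out of the filtered test. The size of difference this comparison could detect was not determined.

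The kept regions were slightly narrower than the rest. Their median width was 229 bp (201 to 819 bp), against 234 bp over all regions (201 to 1484 bp), 237 bp in the 1551 regions that Mef2c gained on its own and 236 bp in the 1321 it left. A width of at most 210 bp was found in 34.4% of them, against 40.4% of all regions, and of at least 500 bp in 2.43%, against 5.03%. The kept regions thus included fewer of the narrowest and fewer of the widest regions. Width varied little with strength: over 4 sets of 958 with rising enrichment with Mef2c alone the median was 236, 228, 228.5 and 223.5 bp.

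The nearest region of any kind lay a median of 12009 bp from a kept region, close to the 12845 bp over all regions. The nearest other kept region was a median of 108905 bp away, whereas from all regions the nearest kept region was 141222 bp away. The nearest region bound by Gata4 with all 3 factors was a median of 83011.5 bp away, against 68263 bp from the gained and 144852 bp from the lost Mef2c regions, and 83995 bp over all regions. For Tbx5 these distances were 72263.5 bp from the kept, 56420 bp from the gained, 147097 bp from the lost and 71700.5 bp from all regions. In distance to Gata4 and Tbx5 binding the kept regions thus stood between the gained and the lost regions and near the median of all, a description with no test.

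Kept regions were most frequent on the X chromosome. There, 150 of 611 regions (24.5%) were kept Mef2c-only regions, against 3682 of 30199 (12.2%) on autosomes, where single chromosomes ranged from 8.88 to 15.5%. Mef2c alone bound 33.7% of X regions, against 14.6 to 24.6% on autosomes, and 72.8% of these were kept, against 64.8%. Mef2c with all 3 factors bound 40.4% of X regions, against 19.2 to 26.9%. Input was lower on the X chromosome, with a mean of 18.2 CPM per region, against 25.2 to 40.6 CPM on autosomes, and its part in the result was not tested. With a pseudocount of 1 or 10 CPM the X share was 25.2 or 22.1%, against 12.7 or 11.6% on autosomes. The X chromosome held 1.06 to 1.09% of the counts of inputs with all 3 factors and 1.17 to 1.29% of those of single-factor inputs. For Mef2c it held 1.41 to 1.90% with all 3 factors and 1.92 to 1.98% alone. An excess on the X chromosome was not limited to the kept regions. The regions gained by Mef2c were 8.18% of X regions, against 3.83 to 6.71% on autosomes, and Gata4 with all 3 factors bound 28.6%, against 17.0 to 24.9%, while Tbx5 with all 3 factors bound 20.5%, against 18.8 to 33.4%. Median enrichments of the kept X regions, 1.30 with all 3 factors and 1.80 with Mef2c alone, were within the range of the autosomes with all 3 factors (1.15 to 1.33) and alone (1.52 to 1.92). None of the 5 regions on the Y chromosome was kept.

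**Figure D5:**
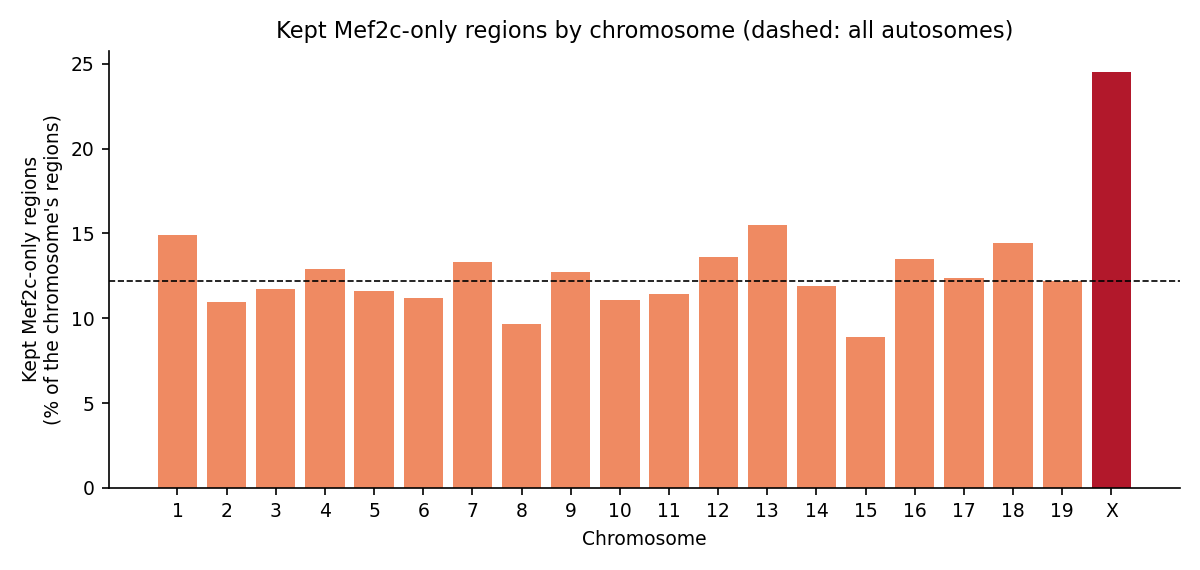
Kept Mef2c-only regions as a percent of the counted regions of each chromosome (y axis), by chromosome (x axis); the dashed line marks 12.2%, the share over all autosomes. The X chromosome stands at 24.5%, and the autosomes at 8.88 to 15.5%.

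A few kept regions formed tight groups. The one with most members was on chromosome 10, where chr10:67596965-67631589 held 5 kept regions among 6 counted regions in 34625 bp. In it, chr10:67619433-67619643 was the strongest, with enrichments of 1.75 with all 3 factors and 2.76 alone, followed by chr10:67629200-67629512 with 1.52 and 2.29. The other 3, at chr10:67596965-67597167, chr10:67597284-67597486 and chr10:67631387-67631589, had the opposite balance. Mef2c enrichment was 1.13 and 1.45 at the first 2 of these with all 3 factors and 0.84 and 0.95 alone. Gata4 with all 3 factors was above input at these 3 (0.13, 0.37 and 0.16) and below it at the 2 others (-0.44 and -0.17). By summed enrichment, neighbouring kept regions within 34625 bp thus differed in which kind of cell had the higher value. By CPM, Mef2c libraries of both kinds overlapped at chr10:67596965-67597167 (47.0 to 73.0 with all 3 factors, 45.4 to 56.3 alone). They also overlapped at chr10:67631387-67631589 (62.7 to 92.3 and 58.8 to 65.9). At chr10:67597284-67597486 they did not (57.4 to 73.3 and 32.7 to 55.8). Nor did they at the 2 strongest, where every library of Mef2c alone was higher.

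On chromosome 11, chr11:97975678-97996586 held 4 kept regions and no other counted region, with Mef2c enrichments of 0.61 to 1.87 with all 3 factors and 0.93 to 2.00 alone. Enrichment was higher alone at all 4, though at chr11:97996364-97996586 it was 1.09 with all 3 factors and 1.10 alone. The strongest in both kinds of cell, chr11:97987048-97987314, had 96.6 to 166.3 CPM with all 3 factors and 120.9 to 172.1 CPM alone, against 21.1 to 54.7 CPM in inputs. On chromosome 3, chr3:122732256-122757263 likewise held 4 of 4, with 0.92 to 1.87 with all 3 factors and 1.06 to 2.46 alone. Its region chr3:122756982-122757263 was 1 of the 150 that Tbx5 alone also bound, at 0.71, while Tbx5 with all 3 factors was at 0.06 there.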

How the data were processed

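The values were raw read counts per region for 33 libraries, in 1 table deposited by the authors. The submitters' processing notes name FastQC, Bowtie2 2.2.4, featureCounts and build mm9. How regions were selected, how duplicates were handled and the alignment settings were not given in the sources used here, and only counts inside the regions were analysed. From the counts, CPM and enrichments were computed with Python 3.11.15 by the rule in the opening. The selection of regions, the naming rules and the lists were chosen with earlier results of these data known. Named regions were the 10 strongest, those nearest the thresholds, the 5 with the largest and smallest Mef2c fold change and Gata4 against Tbx5 fold change among regions whose groups do not overlap, and the 3 tightest runs within 50 kb.

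Tests used edgeR 4.0.16 (quasi-likelihood, TMM, its default count filter) in R 4.3.3, two-sided, with Benjamini-Hochberg adjustment over all regions tested, and DESeq2 1.42.0 as an alternative. Each SE is the absolute log2 fold change over the square root of F. Libraries that agreed within sampling noise by a chi-square test counted once in tests: inputs with all 3 factors 1 and 3 (p = 0.467), and 2, 4 and 5 (p from 0.272 to 0.949). Gata4 libraries 1 and 6 with all 3 factors did so too but entered no test. No genome of build mm9 was used, so no sequence, motif or gene is given.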

Additional observations from a re-analysis of the deposited data

Results flagged for a closer look

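In Tbx5 libraries with all 3 factors, number 4 held 8.64% of its counts in the kept Mef2c-only regions, far from the other 3, at 6.34 to 6.55%. At chr1:92919131-92919333, Gata4 alone number 4 had 40.4 CPM, where the next highest of the 4 libraries had 5.08 CPM. By a gap to the nearest sample that is large against the range of the group (Dixon's test), these 2 were set apart among 34 groups of at least 4 samples examined. Other samples named above as high or low did not pass it or were not examined by it, and chance alone sets 1 sample apart in about 1 in 20 such groups.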

How the results depend on the processing

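The number of kept regions stayed within 1.5 times of 3832 under every alternative run. It was 2598 with a threshold of 1, of which 2296 were shared, and 3979 or 3642 with a pseudocount of 1 or 10 CPM (3750 and 3564 shared). Inputs of the same kind of cell gave 3738 (3360 shared), averaging libraries 3497 (3292 shared), and leaving out 1 library 3520 to 3907. Against the single-factor input of the factor only, Gata4 alone passed the threshold at 421 and Tbx5 alone at 481 kept regions. With all inputs these counts were 164 and 150. Of all regions, 29.3 and 30.3% passed against the single-factor input. These ratios rest on 1 input library each.

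For Gata4 alone against Tbx5 alone, leaving out 1 library gave 345 to 610 calls among the kept regions, 202 to 314 higher for Gata4 and 79 to 296 higher for Tbx5. The lowest of the last count came without Gata4 alone number 1 (79), 2 (84) and 3 (104), and the lowest total (345, with 202 higher for Gata4) without Tbx5 alone number 1. Calls higher for Tbx5 were 132 with scaling to library totals and 382 in 1 fit of all 6 ChIP groups. With the replicate number as a block, 718 were called, 367 higher for Gata4 and 351 for Tbx5. The numbers do not pair the samples, since deviations of same-numbered samples correlated at -0.11, 0.09 and 0.04. DESeq2's Wald test called 408. The 10 named regions kept their direction and call in the 121 alternative values that could be fitted, with an adjusted p of at most 0.0317 by edgeR or DESeq2. They had been picked as called, not overlapping and largest in fold change, so this stability follows in part from the choice. In 9 fits without 1 Gata4 library a named region was below the count filter and had no value: chr1:187191304-187191640 without any of the 4, chr1:72243646-72243878 without 1, 3 or 4, and chr3:37072251-37072524 without 1 or 2.

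The median Mef2c fold change at the kept regions was -0.91 to -0.69 when 1 library was left out, -0.95 with the block, -0.87 with DESeq2's size factors, -1.19 without the count filter and -0.46 from summed CPM. Of 120 alternative values for the 10 regions named for it, 0 changed sign and 34 moved by more than 1 SE. These regions had been picked for large fold changes without overlap, so the steady sign follows in part from the choice. No paired analysis was possible for the inputs because the single-factor inputs are 1 library per factor. The fit with number 3 only and the other pseudocounts on the X chromosome were chosen after seeing the data. Input depth, at 97474 to 301678 counts, limits every enrichment at weak regions.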
